A study of Mus musculus with 6 samples.

Results

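Muscle-derived stem cells (MDSC) labelled Mstn-null were compared with wild-type (WT) MDSC across all genes, on 4 of the 6 arrays of the series. The Mstn-null group and the WT group had 2 arrays each. The other 2 arrays held W4 embryonic stem cells (ESC), which entered only the choice of genes to test and the estimate of spread. These ESC arrays came from 2 different passages, so a passage difference can enter that spread. MDSC are cultured mononuclear cells from digested skeletal muscle that attach to the dish late in a series of platings; the fractions that attach early hold mainly fibroblasts and then myoblasts. Both MDSC groups came from the whole hindlimb muscle of 5 week old male mice, were the slowest adhering fraction, were grown in the same medium with fetal bovine and horse serum and chicken embryo extract, received no treatment and were taken at passage 1. Each group had 2 isolations, which the labels call separate. The mutant allele, the strain of either group and whether animals were pooled are not given in the sources used here, so a difference between genotypes and a difference between strains cannot be told apart.

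Myostatin is a secreted member of the TGF-beta family that limits muscle mass. It is made as a precursor, cut by furin-like and tolloid-like proteases, held inactive by its own propeptide and by binding proteins such as follistatin, and signals through activin type II receptors and type I partners to Smad2 and Smad3. Cultures from muscle by serial plating can hold several cell types besides the intended one, among them fibroblasts, committed myoblasts and macrophages, so genes of those cell types are described beside those of the myostatin pathway.

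RNA was labelled with 1 dye and hybridised to Agilent mouse arrays with 59305 non-control spots. Signals are log2 values relative to the array's own 75th percentile, called levels here, and every difference is the Mstn-null mean minus the WT mean on that scale. Between 53.3% and 57% of spots were well above background on the 4 MDSC arrays, 20798 of the 25057 features tested were so on all 4, and no spot was saturated. Both WT arrays lay on slide 1 and both Mstn-null arrays on slide 2, so slide and genotype cannot be told apart in any value given here. Of 10 probes for RNA added in a fixed amount (E1A spike-ins), 7 were above background on all 4 arrays, and their difference was -0.52 to -0.41. Their mean level was 2.49 and 2.99 on the Mstn-null arrays and 3.24 and 3.17 on the WT arrays, lowest on the first Mstn-null array.

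The label of the cells was set against marker genes. Of 6 myoblast and satellite cell markers, Myod1, Cdh15, Des and Itga7 were above background on all 4 MDSC arrays. Pax7 and Myf5, which mark satellite cells, were not above background on either Mstn-null array or the second WT array, and Myf5 also not on the first WT array. Ly6a (Sca-1), often used to describe MDSC, had levels of 6.77 and 6.02 on the Mstn-null arrays and 6.47 and 7.27 on the WT arrays. Cd34, another such marker, stood at 4.63, 3.95, 4.73 and 6.47 in the same order. All 6 fibroblast markers were above background on all 4 arrays, with a mean level of 5.91 and 6.35 in the Mstn-null isolations and 5.97 and 4.74 in the WT isolations. All 7 measured macrophage markers were above background on 3 arrays and 6 of 7 on the second WT array, where C1qa was not. In such mixed RNA, fewer cells of a type and less RNA per cell cannot be told apart.

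By the share of features at least 2-fold apart, isolations of 1 genotype differed less than arrays of different genotypes did, but only narrowly for WT. The share of features at least 2-fold apart was 6.66% between the Mstn-null isolations and 10.6% between the WT isolations, against 11% to 19.2% for the 4 pairs of a Mstn-null and a WT array. The lowest share between genotypes, 11%, was for the first isolation of each, and the highest, 19.2%, for the second of each. The median absolute log2 difference was 0.2 between the Mstn-null isolations, 0.27 between the WT isolations and 0.25 to 0.43 between genotypes. For the first WT array it was 0.25 and 0.27 with the 2 Mstn-null arrays, so by this measure the WT isolations were no closer to each other. Across genes, which are not independent replicates, the pairs within a genotype correlated with r = 0.987 and 0.978, and the pairs between genotypes with r of 0.955 to 0.978.

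In the fit across all 25057 features (limma, two-sided, Benjamini-Hochberg), 0 were called higher and 0 lower at an adjusted p under 0.05, which is 0.0% and 0.0% of those tested. The smallest adjusted p was 0.0548, and it was 0.11 when only the 4 MDSC arrays were fitted. In the main setting 129 features higher and 335 lower were under an adjusted p of 0.10. At an unadjusted p under 0.05, 1050 features were higher (4.19%) and 2621 lower (10.5%). Both Mstn-null arrays were above both WT arrays in 4153 features (16.6%) and below both in 8731 (34.8%), and with a gap of at least 1 between the groups these counts were 419 (1.67%) and 575 (2.29%). The median difference was -0.12, so small negative differences are near the bulk of all genes. The lean towards lower values moved with the scaling: 28.6% of features with an unadjusted p under 0.05 were higher in the main setting, 42.0% after quantile normalization (1452 higher and 2008 lower) and 48.0% after median centring (1360 and 1476), which put the median difference at -0.04 and 0.04.

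Some settings did give calls. When the filter asked for signal above background on both arrays of an MDSC group, which left 22952 features, 22 passed as higher and 50 as lower, and after quantile normalization 10 and 12 passed. An exact permutation test of 2 against 2 arrays cannot give a p below 0.333. The genes named next are therefore those with the smallest p, and none of them passes in the main setting.

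Among genes above background on all 4 arrays, Npy (neuropeptide Y), a peptide transmitter, was higher on both Mstn-null arrays. It had levels of 0.79 and 1.36 on the Mstn-null arrays and -2.27 and -2.61 on the WT arrays, an 11.4-fold difference (3.51 ± 0.27 SE, adjusted p = 0.0554). The groups lay far apart, with both isolations of a genotype close together, which the choice by smallest p with no overlap favours. Col28a1, a collagen chain, showed the same separation at -0.71 and -1.23 against -4.19 and -4.13, or 9.1-fold (adjusted p = 0.0554).

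Genes of membrane transport and metabolism were also among the 10 with the smallest p on the higher side. Fxyd2, a regulatory subunit of the sodium pump, read 1.54 and 1.61 against -0.92 and -1.27, a difference of 2.67, and its second probe gave 3.36. Slc16a1, which carries lactate and other monocarboxylates, read -0.85 and -0.84 against -2.43 and -2.47, a difference of 1.61 (adjusted p = 0.0566). Bckdhb, a subunit of the complex that breaks down branched-chain amino acids, read 2.89 and 2.97 against 1.22 and 1.30, a difference of 1.67 (adjusted p = 0.0665). In each of these the isolations of a genotype lay nearer to each other than to the other genotype, which the same choice favours. The rest were Cuedc1 (difference 2.41), the cell adhesion gene Cadm1 (2.23), Ocel1 (2.02), the odorant receptor Olfr373 (1.86, with a second probe that was below background on all 4 arrays) and the kinase Alpk1 (1.79), which senses bacterial sugar metabolites.

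On the lower side, Prim2, the large subunit of DNA primase, had levels of -2.71 and -2.42 on the Mstn-null arrays and 0.86 and 1.46 on the WT arrays, a 13.2-fold difference (-3.72 ± 0.27 SE, adjusted p = 0.0554). Serinc2, a membrane protein of the serine incorporator family, read -2.08 and -1.15 against 2.47 and 1.98, and its 3 probes gave differences of -3.84, -3.82 and -3.73. Lars2, the mitochondrial leucyl-tRNA synthetase, read -1.49 and -1.21 against 0.62 and 0.97, a difference of -2.15 (adjusted p = 0.0566). These genes did not overlap between genotypes on any array, as the choice of genes required. Pdpn, the membrane glycoprotein podoplanin of fibroblasts and lymphatic endothelium, read 4.66 and 5.02 against 6.70 and 6.62, a difference of -1.82, with -0.87 at its second probe. Cyb561 (-2.00), Lmo7 (-1.76, and -1.74 at its second probe), Olfr635 (-1.53) and Ftdc1 (-1.53) made up the list with 2 zinc finger genes.

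**Figure D1:**
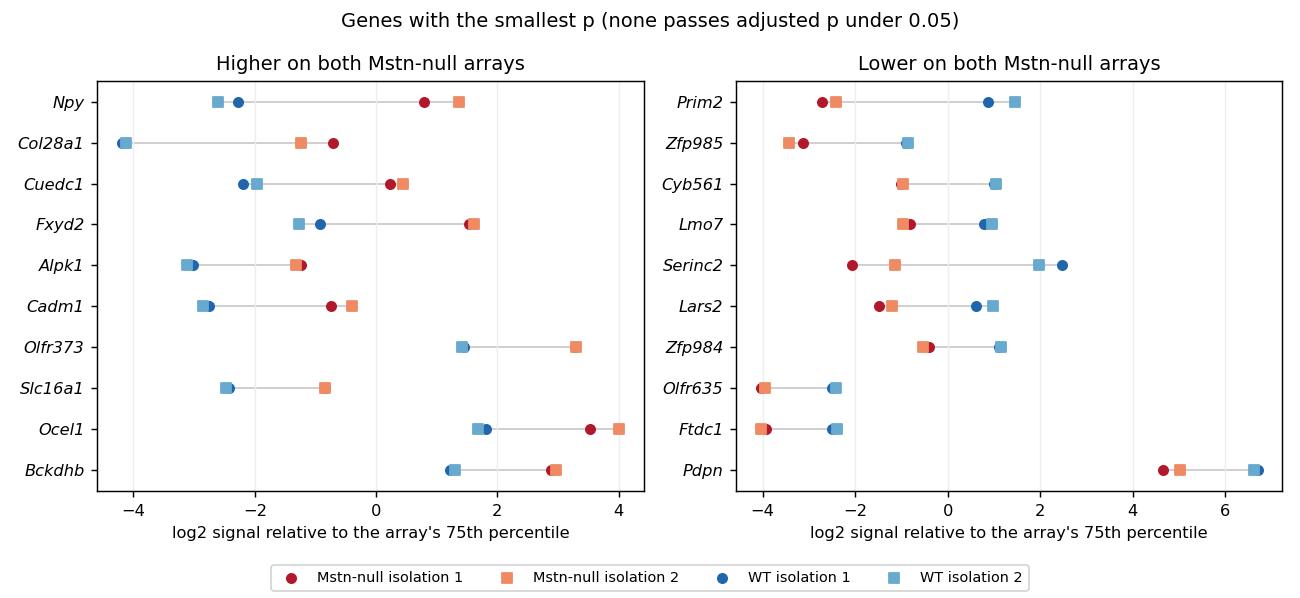
Levels of the 20 named genes with the smallest p among those above background on all 4 MDSC arrays (x axis, log2 signal relative to the array's 75th percentile), with 1 symbol for each array. The genes were chosen to have no overlap between genotypes, and none passed an adjusted p under 0.05 in the main setting.

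The zinc finger genes Zfp985 and Zfp984 lie close together in the RefSeq order, with Zfp982, which was above background on the WT arrays only. Zfp985 read -3.14 and -3.44 on the Mstn-null arrays and -0.90 and -0.85 on the WT arrays, a difference of -2.42 (adjusted p = 0.0554). Zfp984 read -0.40 and -0.54 against 1.1 and 1.16, but its 3 probes disagreed, with differences of -1.60, -0.77 and 1.41. From Zfp982 to Zfp984 the RefSeq order holds 12 genes, of which 5 were tested. All 5 were below both WT arrays on both Mstn-null arrays. Zfp982, Zfp985 and Zfp984 had been chosen for lower levels on the Mstn-null arrays, so their direction adds nothing to this count. The other 2 were Zfp979 (difference -1.78) and Zfp534 (-0.54), where 34.8% of all features were below both WT arrays. This stretch was looked at after the values of Zfp982, Zfp985 and Zfp984 were seen. Its genes are near-identical copies in part, so a probe may read more than 1 of them.

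Of the 25057 features tested, 201 were above background on both Mstn-null arrays and neither WT array and 775 the other way round (98 and 277 with a gene name). More spots were well above background on the WT arrays (56.2% and 57%) than on the Mstn-null arrays (55% and 53.3%). The part of this, and of the lower spike-in signal on the Mstn-null arrays, in the 2 counts was not tested. For genes above background in 1 genotype only, the fold is a lower bound against the background of the dim arrays. Hal, which starts the breakdown of histidine, was at least 19.1-fold higher in the Mstn-null group (levels -1.41 and 0.25 against -6.62 and -6.57, adjusted p = 0.0628). Gbp2b, an interferon-induced GTPase, was at least 11.7-fold higher, with -1.27 and -1.30 against -6.33 and -6.89 and a second probe that was likewise above background on the Mstn-null arrays only. Pitpnm3, a membrane-associated lipid transfer protein, was at least 9.77-fold higher, and Dcstamp, needed for fusion of osteoclasts and macrophage giant cells, at least 5.93-fold. Card9, an adaptor of fungal sensing in myeloid cells, was at least 3.78-fold higher and Cd207 (langerin), a lectin of Langerhans cells, at least 2.77-fold.

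On the WT-only side, Zfp982 was at least 6.59-fold higher in the WT group (levels -1.82 and -2.57 against -6.26 and -5.37, adjusted p = 0.0665) and Cldn34c1, of the claudin family, at least 5.8-fold. Guca1a, an activator of retinal guanylate cyclase, followed at 3.51-fold or more. Cldn3, an epithelial claudin, and Hbb-bh2, of the beta-globin cluster, were at least 2.38-fold and 2.37-fold higher in WT, and the second probe of Hbb-bh2 was below background on all 4 arrays. No gene of either set passed an adjusted p under 0.05 in the main setting.

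Mstn itself had levels of -3.06 and -2.47 on the Mstn-null arrays, both above background, and -4.90 and -6.71 on the WT arrays, neither above it. The difference was at least 4.07-fold in favour of the Mstn-null group (adjusted p = 0.135). The signal was thus higher, not lower, in the cells labelled null. The allele, and where the probe lies relative to its altered part, were not known here, so this signal does not check the label.

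Among the 20 nearest tested neighbours of Mstn in the order of the RefSeq table, 10 on each side, the Mstn-null arrays were both above the WT arrays in 4, both below in 5 and overlapped in 11. Among all features 16.6% were above both and 34.8% below both, and 4.19% and 10.5% were higher and lower at an unadjusted p under 0.05. The median difference of the neighbours was -0.02, and the smallest adjusted p was 0.132. Of these genes, 2 had an unadjusted p under 0.05. They were 1700019D03Rik, the next tested gene before Mstn, at -3.93 and -4.53 against -2.80 and -2.82, and Stat4, a transcription factor of interleukin-12 signalling in immune cells, at -4.44 and -2.13 against -5.76 and -6.77, where only the second Mstn-null array was above background. Hibch, Inpp1 and Pms1, which lie nearest among the named genes, had differences of -0.17, -0.11 and 0.05.

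**Figure D2:**
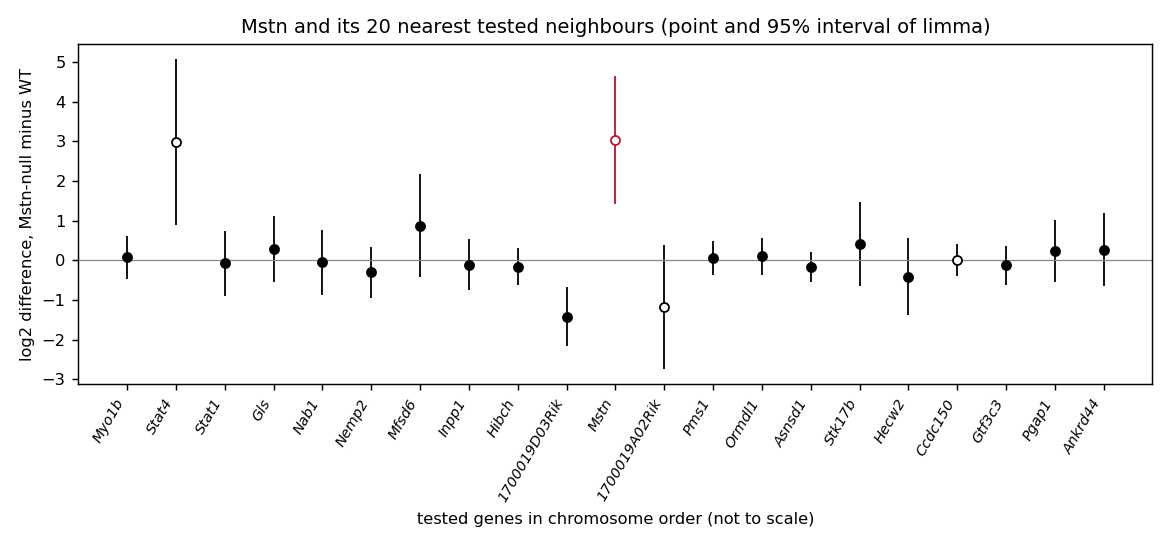
Difference between Mstn-null and WT MDSC (y axis, log2) for Mstn, in red, and its 20 nearest tested neighbours in chromosome order, with the 95% interval of the limma fit. Open symbols are genes below background on both arrays of at least 1 genotype, Mstn and Stat4 among them, whose differences have no exact size; most intervals include 0.

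Among ligands of the pathway, 11 were tested, none was called, and 2 were higher and 0 lower at an unadjusted p under 0.05. Besides Mstn this was Gdf1, a ligand of left-right patterning, at 1.66 and 1.32 against 0.76 and 0.40 (difference 0.91, adjusted p = 0.268), but its second probe gave a difference of -0.51. Inhba, which encodes the activin A subunit, read 4.91 and 5.30 against 4.53 and 4.83, a difference of 0.42 (SE 0.32, adjusted p = 0.608). Gdf11, the ligand nearest in sequence to myostatin, read -2.74 and -2.66 against -2.53 and -2.88, so the genotypes overlapped. Tgfb1 (difference 0.53), Tgfb2 (0.03) and Tgfb3 (0.03) overlapped too. The median over the ligands was 0.27, beside -0.12 over all features. Among all features 4.19% were higher and 10.5% lower at an unadjusted p under 0.05.

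Antagonists and carriers gave 0 higher and 1 lower of 16 at an unadjusted p under 0.05, beside 4.19% and 10.5% of all features, with a median of 0.01. The 1 was Nog, the secreted BMP antagonist noggin. It read -1.63 and -2.15 on the Mstn-null arrays and 0.34 and 0.25 on the WT arrays, a difference of -2.19 ± 0.23 SE (adjusted p = 0.0649). Follistatin (Fst), which binds and blocks myostatin and activins, read 4.0 and 4.30 against 3.27 and 3.50, higher on both Mstn-null arrays with a difference of 0.77 ± 0.54 (adjusted p = 0.586). Fstl3, a follistatin-like inhibitor, overlapped between genotypes, at 2.89 and 3.59 against 3.05 and 1.90. Grem1, a BMP antagonist, read 3.89 and 4.17 against 4.40 and 5.66. Tcap (telethonin), a sarcomere protein that also binds the myostatin precursor, was high on the first WT array alone, at 2.51, against -2.21, -2.28 and, on the second WT array, -1.65.

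Receptors and processing enzymes had a median of 0.46 over 12 tested genes, with 1 higher and 0 lower at an unadjusted p under 0.05, beside 4.19% and 10.5% of all features. Of the 12 genes, 9 were lowest on the second WT array. Their median was 0.16 without that array, 0.71 without the first WT array and 0.29 without the first Mstn-null array. The type I receptor Tgfbr1 read 1.68 and 1.71 on the Mstn-null arrays and 1.21 and 1.19 on the WT arrays, a difference of 0.50 ± 0.15 SE (adjusted p = 0.226). Acvr2a, a type II receptor of activins and myostatin, read 0.41 and 0.26 against 0.01 and -1.15, and Acvr2b, the other main type II receptor, overlapped at -1.05 and -1.39 against -1.23 and -1.90. Acvr1b, a type I partner, differed by 0.48 (adjusted p = 0.581). Furin, which cuts the precursor, read 3.33 and 3.54 against 3.83 and 3.60, and Tll1, a tolloid protease of the kind that releases myostatin from its propeptide, read -2.04 and -1.33 against -0.39 and -1.22. These 2 were lower on both Mstn-null arrays, by differences of -0.28 and -0.88.

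**Figure D3:**
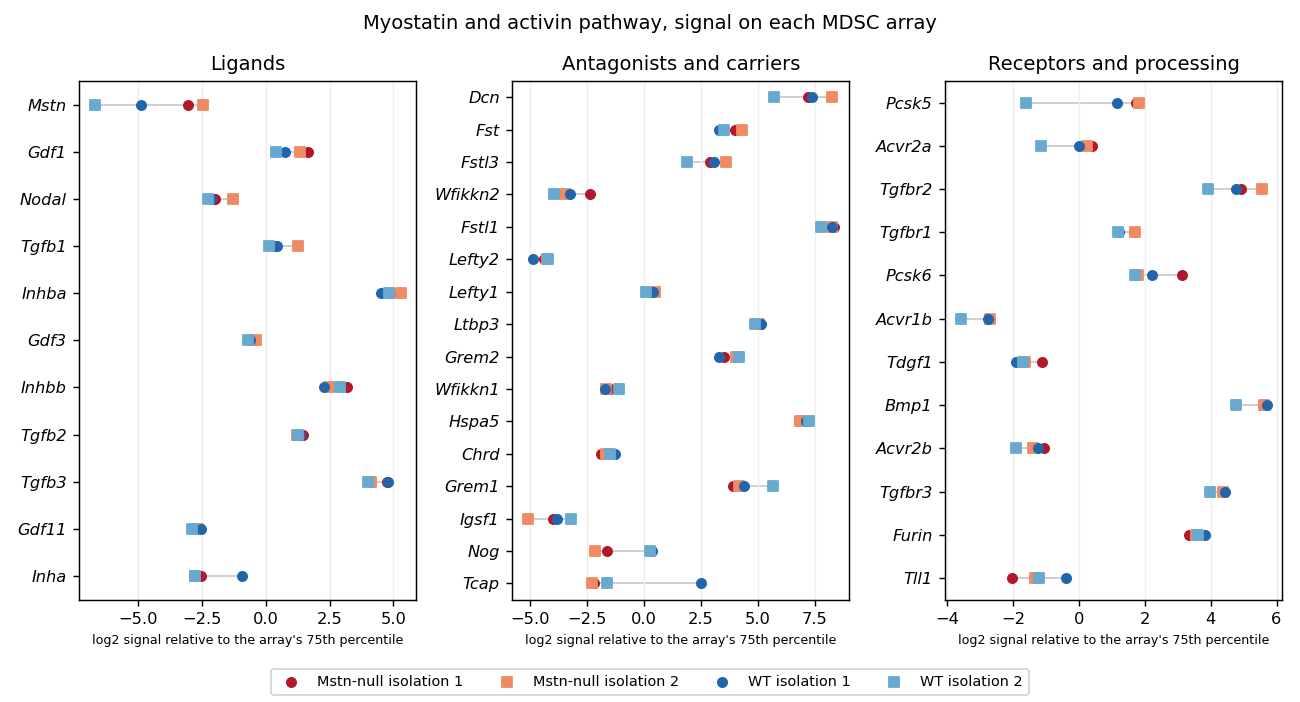
Levels on each MDSC array (x axis, log2 signal relative to the array's 75th percentile) for the tested ligands, antagonists and carriers, and receptors and processing enzymes of the myostatin and activin pathway, ordered by difference. Most members overlap between genotypes or lie within 1 log2 unit, while Mstn and Nog are separated in opposite directions.

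Smad proteins and their regulators gave 0 higher and 0 lower of 16 at an unadjusted p under 0.05, with a median of -0.05, beside -0.12 over all features. Smad3, which carries the signal with Smad2, read 3.42 and 3.70 on the Mstn-null arrays and 4.08 and 3.58 on the WT arrays. Smad7, the inhibitory Smad induced by the pathway, read 2.54 and 2.30 against 2.34 and 2.53, a difference of -0.01 with a 95% interval of -0.65 to 0.62. Among 24 genes known to respond to TGF-beta, 0 passed an unadjusted p of 0.05 in either direction, and the median was 0.53. On both Mstn-null arrays 12 were above both WT arrays and 1 below, beside 16.6% and 34.8% of all features. Of these 24, 19 had their lowest level on the second WT array, and without it the median was 0.12. Ccn2 (connective tissue growth factor) read 7.81 and 8.18 against 7.22 and 6.42, and Itga11, a collagen receptor of fibroblasts, 5.33 and 5.62 against 4.99 and 1.60.

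Effectors of muscle growth and atrophy had 0 higher and 2 lower of 24 at an unadjusted p under 0.05, no more than the 4.19% and 10.5% of all features. The coactivator Ppargc1a, known for mitochondrial biogenesis, read -2.42 and -2.95 against -1.94 and -1.69 (difference -0.88, adjusted p = 0.197), and Foxo3, a transcription factor of atrophy programmes, -4.59 and -4.06 against -3.32 and -3.61 (-0.86, adjusted p = 0.208). Akt1 and Akt2, growth kinases downstream of insulin-like growth factor, differed by -0.35 and -0.30, and both were lower on each Mstn-null array. Igf1 was low on the second WT array alone, at 0.73 against 3.00, 3.95 and 3.60.

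The largest shift of any list was in 42 tested macrophage and myeloid genes, whose median difference was 3.89. Both Mstn-null arrays were above both WT arrays in 39 of them and 37 had an unadjusted p under 0.05, beside 16.6% and 4.19% of all features, but 0 passed after adjustment (smallest adjusted p = 0.0665). Their mean level was 1.02 and 3.18 on the Mstn-null arrays and -0.65 and -2.57 on the WT arrays. The 4 arrays thus kept 1 order, second Mstn-null, first Mstn-null, first WT, second WT, and 39 of the 42 genes followed it. The Mstn-null isolations lay further apart in this mean than the first Mstn-null and the first WT isolation did. All 42 genes were above background on both Mstn-null arrays, but 40 on the first WT array and 33 on the second. Genes not above background on both WT arrays entered the test through the Mstn-null or the ESC arrays. Such genes could hardly be lower on the Mstn-null arrays, so the counts of 39 and 37 are partly fixed by the filter. The differences of genes that were not above background on the WT arrays have no exact size. With the second Mstn-null array left out 24 genes had an unadjusted p under 0.05 and the median was 2.68, and without the second WT array 23 and 2.90.

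Single genes of this list show the order. Spi1, which encodes the myeloid master regulator PU.1, read -3.04 and -1.56 on the Mstn-null arrays and -6.22 and -6.88 on the WT arrays (difference 4.25, adjusted p = 0.0742). Its WT levels lie near the floor of those arrays, so this difference has no exact size. Ptprc, the pan-leukocyte antigen CD45, read -1.39 and 0.32 against -3.56 and -4.45. Adgre1, a macrophage surface receptor, read -0.58 and 1.51 against -2.36 and -3.85. In all of these the second Mstn-null array was highest and the second WT array lowest. Clec4n (dectin-2), a lectin of fungal recognition, had the smallest adjusted p of the list, 0.0665, at 2.93 and 4.21 against -0.21 and -0.47, where the WT arrays lay close together. The complement genes C1qa and C1qc overlapped between genotypes, as C1qc read 0.65 and 4.39 against 0.70 and -4.38. Itgam was the 1 member below both WT arrays, at 5.27 and 5.09 against 5.50 and 5.27, but its other probes gave differences of 0.77 and 1.80.

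PU.1 binds purine-rich sites, and its short core GAGGAA was searched on both strands in the 250 bases before the start of each gene (RefSeq promoters, build GRCm38.p6). Of 29 list members with a promoter entry, 16 held it (55.2%), beside 26% of the 12271 tested genes with an entry. Stretches of 160 bases up to the start are shown for 2 members with differences of 5.03 and 4.62, with the core or its reverse complement in capitals. Clec4e (chr6:123289872-123290031, minus strand) and Pirb (chr7:3720383-3720542, minus strand) each hold it in 2 places. A match of letters does not show that the factor binds there.
Clec4e: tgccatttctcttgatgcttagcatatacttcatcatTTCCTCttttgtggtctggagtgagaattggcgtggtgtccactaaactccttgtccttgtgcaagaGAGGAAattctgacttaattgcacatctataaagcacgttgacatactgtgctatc
Pirb: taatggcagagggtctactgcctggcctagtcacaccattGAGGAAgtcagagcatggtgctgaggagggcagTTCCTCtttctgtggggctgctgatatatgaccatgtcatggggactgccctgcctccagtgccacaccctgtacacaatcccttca
Both genes followed the array order of the list: Clec4e, a lectin that senses mycobacterial glycolipid, read 0.60 and 2.39 against -1.38 and -5.69, and Pirb, an inhibitory receptor, 1.87 and 4.10 against -0.45 and -2.81.

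Many secreted immune genes were also higher on both Mstn-null arrays. Of 23 chemokine genes tested, 16 were above both WT arrays and 3 below, 8 and 2 had an unadjusted p under 0.05, and the median difference was 1.25. Among all features 16.6% were above both and 34.8% below, and 4.19% and 10.5% had such a p. Without the second WT array 4 chemokines were higher at that p, and without the second Mstn-null array 5. Ccl3 and Ccl4, chemokines of activated macrophages, followed the macrophage order, with Ccl4 at 1.87 and 4.98 against 0.54 and -2.73. Ccl11 (eotaxin), which attracts eosinophils, did not. It read 3.50 and 2.76 against 0.52 and 0.04, highest on the first Mstn-null array, a difference of 2.85 ± 0.58 SE (adjusted p = 0.132). Cxcl12, the stromal ligand of Cxcr4, was likewise highest on the first Mstn-null array, at 6.29 and 5.59 against 5.24 and 4.62. Ccl5 was lower on both Mstn-null arrays, at -1.27 and -1.74 against 0.28 and -0.45.

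Complement genes had 12 of 18 above both WT arrays, 9 higher and 1 lower at an unadjusted p under 0.05, and a median of 1.51, which was 0.60 without the second WT array. Among all features 16.6% were above both, and 4.19% were higher and 10.5% lower at that p. Serping1, the inhibitor of the first complement component, read 5.56 and 4.31 on the Mstn-null arrays and 2.99 and 2.35 on the WT arrays (difference 2.26, adjusted p = 0.135). Cfp (properdin), a stabiliser of the alternative pathway made by myeloid cells, read 3.03 and 4.61 against 0.96 and -0.15. C6, a late component, was lower on both Mstn-null arrays, at -4.59 and -5.02 against -3.75 and -3.92. Of 28 cytokine and inflammatory genes 15 were above both WT arrays, and 5 had an unadjusted p under 0.05 (1 without the second WT array, 2 without the second Mstn-null array), among them the acute-phase gene Saa3 at 1.34 and 1.22 against -1.02 and -2.60. Tnf read 0.68 and 3.19 against -0.68 and -4.29, in the macrophage order, while Il6 overlapped at 4.79 and 6.03 against 5.85 and 3.24. The part that the macrophage genes have in these lists was not tested.

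Osteoclast and fusion genes were split, with 3 higher and 2 lower of 14 at an unadjusted p under 0.05, beside 4.19% and 10.5% of all features. Dcstamp had levels of -2.22 and -2.31 against -5.60 and -5.79, and Tnfrsf11a, the receptor RANK, 0.78 and 1.59 against -0.28 and -0.29. Both were higher on each Mstn-null array than on either WT array. Itgb3, the integrin beta-3 chain, went the other way, at -0.39 and 0.26 against 1.54 and 1.42, and Ctsk, the collagen-degrading protease of osteoclasts, at 4.23 and 3.90 against 4.65 and 4.55.

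Muscle genes were high in a single culture. Of 37 sarcomere and contraction genes, 36 had their highest level on the first WT array, whose mean level over the list was 2.44, against -0.69 and -0.60 on the Mstn-null arrays and -0.67 on the second WT array. The median difference was -1.65, with 14 below both WT arrays and 5 at an unadjusted p under 0.05, counts near the 34.8% and 10.5% of all features. Without the first WT array the median was 0.01 and 19 of 37 were higher, and without the second it was -3.43 and 31 had an unadjusted p under 0.05. Myh3, the embryonic myosin heavy chain, read 1.75 and 1.0 on the Mstn-null arrays and 5.12 and 2.26 on the WT arrays. Actc1, the cardiac actin expressed in new myotubes, read 2.22 and 1.27 against 5.62 and 3.22. Myom3, a protein of the sarcomere's M-band, read -2.73 and -2.60 against 2.36 and -0.95 (difference -3.37, adjusted p = 0.249).

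The 24 genes of excitation and muscle metabolism showed the same array pattern, with 23 highest on the first WT array and a median of -1.83, which was -0.36 without that array and -3.67 without the second. In Eno3, the muscle enolase, both WT arrays were high, at 5.17 and 4.83, against 3.57 and 2.75 on the Mstn-null arrays (difference -1.84, adjusted p = 0.139). Ckm, the muscle creatine kinase, was high on the first WT array alone, at -0.19 against -4.54, -4.15 and -3.58. Chrna1, a subunit of the acetylcholine receptor of muscle, read 0.61 and 0.10 against 4.23 and 1.08.

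Of 15 regulators of myogenic differentiation 9 were below both WT arrays and 2 lower at an unadjusted p under 0.05, beside 34.8% and 10.5% of all features. Their median was -0.60, and it was -0.32 without the first WT array, -1.76 without the second and -1.11 without the second Mstn-null array. Myog, the differentiation factor myogenin, read -0.16 and -1.75 against 2.58 and 0.58 (difference -2.53, adjusted p = 0.279). Mymk (myomaker), which drives fusion of myoblasts, read -0.54 and -1.0 against 2.30 and -0.22, and its partner Mymx -0.15 and -1.09 against 2.72 and 0.03. Cdkn1c, the cell cycle inhibitor p57 of differentiating myoblasts, read -0.35 and -0.93 against 1.30 and 0.74. The groups did not overlap in these 4 genes, although the first WT array stood furthest out. Among 27 progenitor genes, Myod1 read -3.48 and -3.94 against -0.04 and -2.24 and the chemokine receptor Cxcr4 -3.43 and -1.88 against -5.37 and -6.00, while the list's median was -0.05. Pax3, the embryonic myogenic factor, was highest on the second WT array, at 0.12 against -2.02, -2.46 and -2.47.

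The E-box CAGCTG, a short site that myogenic factors of the Myod1 family can bind, was present on either strand in 11 of 28 sarcomere promoters (39.3%), beside 14.5% of tested genes. The letters are the same on both strands. The 160 bases before the start of 2 members that were high on the first WT array are shown, with the E-box in capitals. They are Mylpf, a fast myosin light chain (chr7:127211448-127211607, plus strand), and Tnni1, slow troponin I (chr1:135799261-135799420, plus strand).
Mylpf: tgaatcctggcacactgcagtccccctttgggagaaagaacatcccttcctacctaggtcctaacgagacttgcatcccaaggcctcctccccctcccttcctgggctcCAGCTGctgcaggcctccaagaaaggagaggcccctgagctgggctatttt
Tnni1: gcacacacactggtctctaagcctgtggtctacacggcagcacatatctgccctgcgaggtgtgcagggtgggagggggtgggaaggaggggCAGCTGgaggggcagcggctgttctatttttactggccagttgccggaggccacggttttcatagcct
Mylpf read -4.91 and -6.66 on the Mstn-null arrays and -1.63 and -4.99 on the WT arrays.

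**Figure D4:**
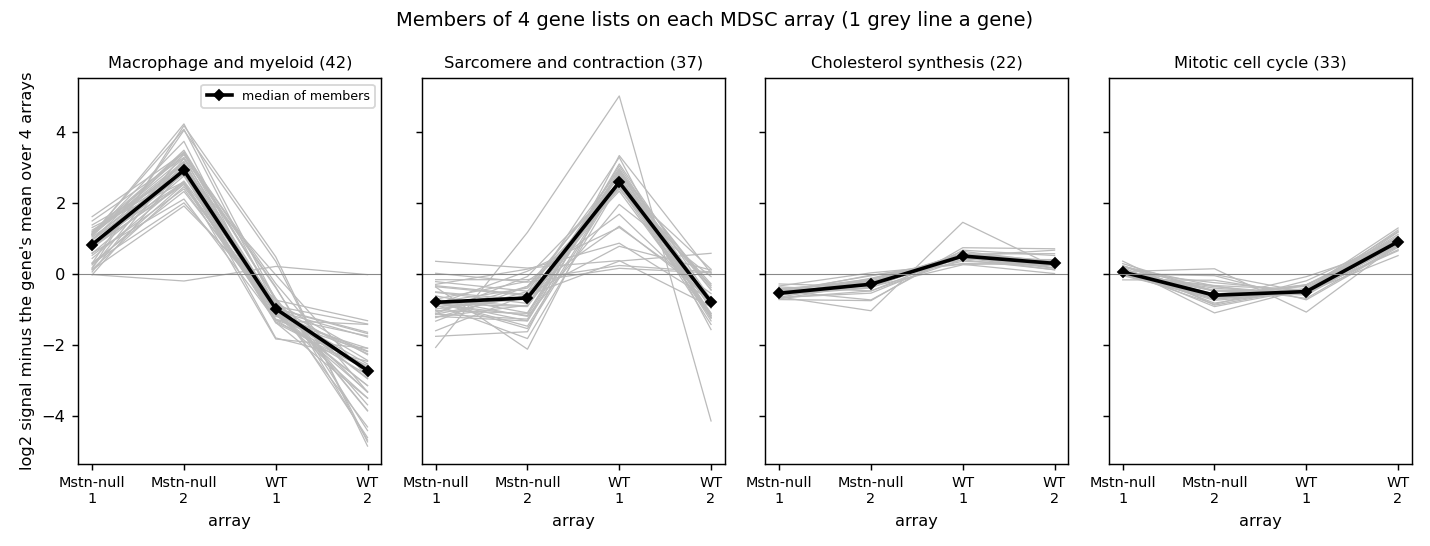
Levels of the tested members of 4 gene lists on the 4 MDSC arrays (x axis), each as log2 signal minus that gene's mean over the 4 arrays (y axis), with grey lines for genes and a black line for their median. Macrophage genes are highest on the second Mstn-null and lowest on the second WT array, sarcomere genes peak on the first WT array, cholesterol genes are low on both Mstn-null arrays, and mitotic genes peak on the second WT array.

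Genes of cholesterol synthesis were lower on the Mstn-null arrays. All 22 genes had a negative difference, 21 were below both WT arrays and 18 had an unadjusted p under 0.05, beside 34.8% and 10.5% of all features, but 0 passed after adjustment (smallest adjusted p = 0.0775). The mean level was 1.16 and 1.36 on the Mstn-null arrays and 2.23 and 2.01 on the WT arrays, and the median difference was -0.82. It was -0.95 to -0.70 with any 1 MDSC array left out, with 10 to 15 genes at an unadjusted p under 0.05. Median centring left 10 of 22 at that p and a median of -0.66, so the count depends on the scaling.

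Enzymes along the pathway were lower from its early to its late steps. Hmgcs1, the synthase at the entry of the mevalonate pathway, read 3.93 and 4.15 on the Mstn-null arrays and 4.71 and 4.59 on the WT arrays, a difference of -0.61. Idi1, the isomerase of the isoprenoid units, read 2.10 and 2.22 against 3.27 and 3.43 (-1.18, adjusted p = 0.0993). After the branch to sterols, Lss, the cyclase that makes lanosterol, read -0.45 and -0.70 against 0.70 and 0.55 (-1.20, adjusted p = 0.114). Cyp51, the lanosterol demethylase, read -0.74 and -0.77 against 0.72 and 0.69 (-1.46 ± 0.20 SE, adjusted p = 0.0775). In each of these the 2 arrays of a genotype differed by less than the genotypes did.

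Srebf2, which encodes the transcription factor that induces the pathway when sterols are low, overlapped between genotypes, at 0.18 and 0.55 against 0.79 and 0.53. Its second probe read -0.64 and 1.0 against -1.24 and -1.54, a difference of 1.57, so its probes disagree. The sterol regulatory element-like letters TCACNCCAC (N, any base) were found on either strand in 1 of 14 members with a promoter entry, Hmgcs1, and in 1.25% of tested genes. The CCAAT box, to which the partner factor NF-Y binds, was found on either strand in 14 of 14, beside 39.9% of tested genes. Stretches of 160 bases before the start are shown with these letters in capitals: Hmgcs1 (chr13:119690191-119690350, plus strand), Idi1 (chr13:8885446-8885605, plus strand), Lss (chr10:76531445-76531604, plus strand) and Cyp51 (chr5:4104698-4104857, minus strand).
Hmgcs1: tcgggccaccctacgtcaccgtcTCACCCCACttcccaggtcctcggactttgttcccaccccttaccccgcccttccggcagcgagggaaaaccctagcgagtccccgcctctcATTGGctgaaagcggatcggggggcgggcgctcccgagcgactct
Idi1: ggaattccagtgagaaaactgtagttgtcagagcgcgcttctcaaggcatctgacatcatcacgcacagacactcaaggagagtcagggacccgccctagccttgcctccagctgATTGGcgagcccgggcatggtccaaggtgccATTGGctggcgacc
Lss: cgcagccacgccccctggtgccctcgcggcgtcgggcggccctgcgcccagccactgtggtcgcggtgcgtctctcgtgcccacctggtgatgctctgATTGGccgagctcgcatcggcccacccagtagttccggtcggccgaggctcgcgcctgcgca
Cyp51: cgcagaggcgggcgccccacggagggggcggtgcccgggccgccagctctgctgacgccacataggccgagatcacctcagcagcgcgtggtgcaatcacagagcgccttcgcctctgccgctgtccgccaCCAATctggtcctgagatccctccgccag
In Hmgcs1 the first run of capitals is the sterol element-like match and the second the CCAAT box read on the other strand, and no printed match overlaps another. These letters describe the sequence and do not show what binds it.

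Proliferation genes were set apart by the second WT culture. All 33 mitotic genes tested were highest there, with a mean level of 1.83 against 0.99 and 0.36 on the Mstn-null arrays and 0.42 on the first WT array. Of all features 16.6% were above both WT arrays and 34.8% below both, and of the 33 mitotic genes 0 separated the genotypes. Without the second WT array the median difference was 0.27, and without the first it was -1.15. Cdc20, an activator of the anaphase complex, read 3.73 and 2.44 against 3.12 and 4.83. Of 28 DNA replication genes 26 were highest on the second WT array. Of 31 interferon-stimulated genes 25 were highest on the first WT array and 25 lowest on the second, with list means of -0.29 and 0.59 against 1.11 and -0.91, so the WT isolations lay further apart than the genotypes.

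Small uniform shifts were seen in housekeeping lists. Of 30 ribosomal protein genes 28 were below both WT arrays, with a median of -0.28 and 0 at an unadjusted p under 0.05, and 27 of 34 respiratory chain genes were below both, with a median of -0.24, beside 34.8% of all features below both. Under median centring the medians were -0.12 and -0.08, beside an all-feature median of 0.04, and 29 of the 30 ribosomal genes were highest on the second WT array. These shifts are smaller than the -0.49 median difference of the spike-in probes, and the part of that difference in them was not tested.

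Of 30 matrix proteases and inhibitors 6 were higher and 0 lower at an unadjusted p under 0.05, beside 4.19% and 10.5% of all features. Their median was 0.36, and it was 0.13 without the second WT array and 0.73 without the first. Timp3, a matrix-bound metalloproteinase inhibitor, read 6.32 and 6.51 on the Mstn-null arrays and 4.86 and 4.85 on the WT arrays, a difference of 1.56 ± 0.17 SE (adjusted p = 0.0665). Mmp12, the macrophage elastase, read -1.70 and -2.25 against -4.13 and -4.21 (2.20, adjusted p = 0.0685), with 0.17 at a second probe that was below background on all 4 arrays. Of 30 collagen chain genes 3 were higher and 3 lower at that p, with a median of 0.13. Of 34 limb and Hox genes 16 were below both WT arrays and 1 above, 4 were lower at an unadjusted p under 0.05, and the median was -0.26. Among all features 34.8% were below both and 10.5% lower at that p. Hoxd13, of the distal limb, read -3.97 and -4.25 against -2.71 and -2.71, and Pitx1, the hindlimb identity factor, 2.43 and 2.41 against 3.05 and 3.52.

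**Figure D5:**
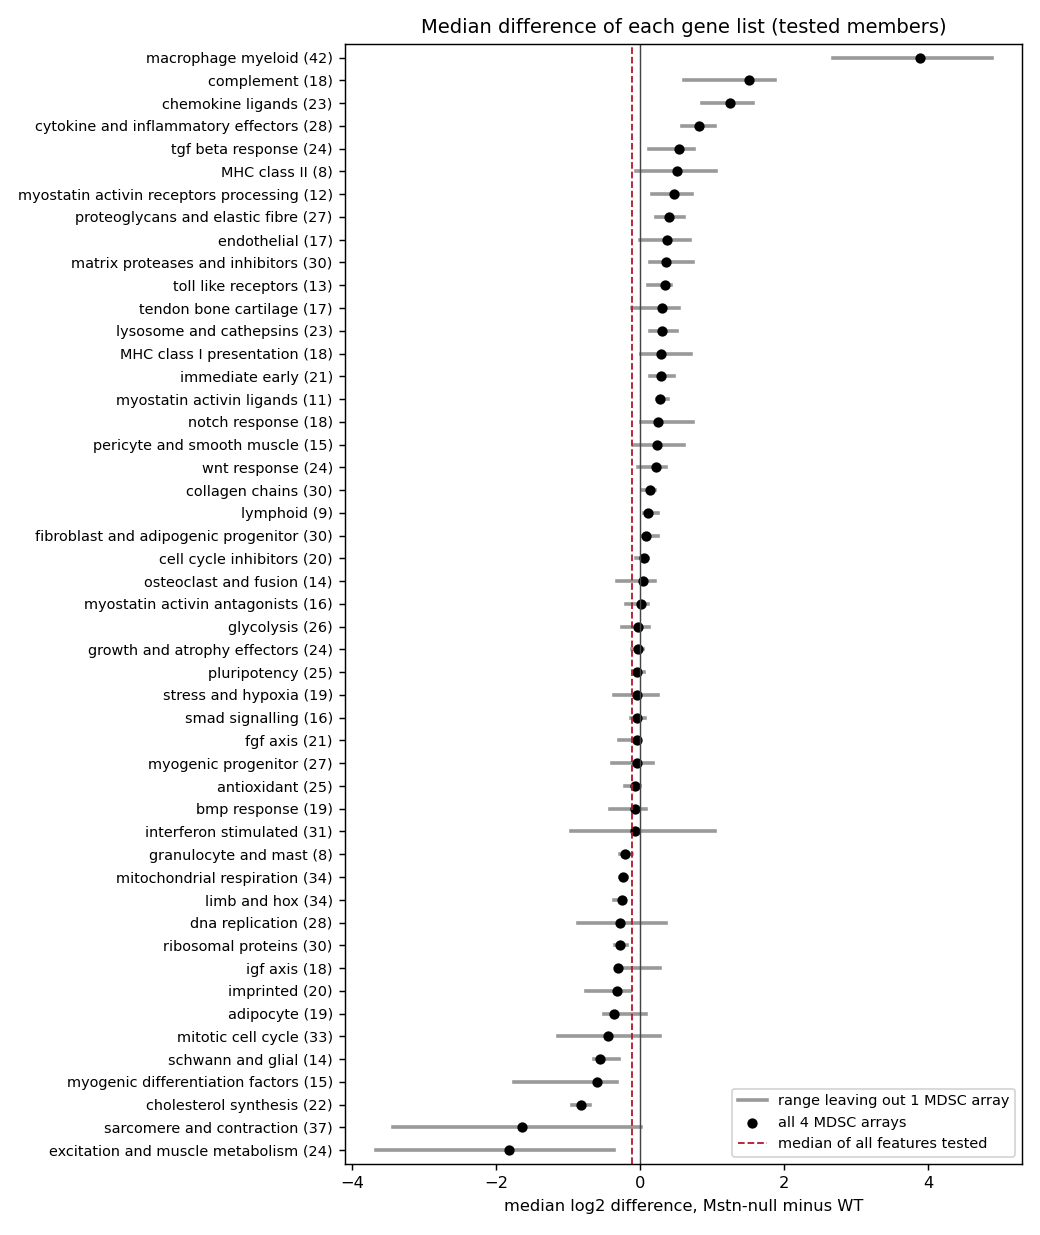
Median difference between Mstn-null and WT MDSC (x axis, log2) for the 49 gene lists with at least 8 tested members, as points, with bars for the range when 1 MDSC array is left out; the dashed line is the median of all features, -0.12. The medians run from -1.83 (excitation and muscle metabolism) to 3.89 (macrophage and myeloid). Median centring moves all features alike, from a median of -0.12 to 0.04. Across the main setting, quantile normalization, median centring and another background correction, 12 of all 51 lists, with medians near 0, change sign.

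Genes far apart between isolations of 1 genotype give the scale of culture differences. A feature was counted as set apart when 1 array was at least 2 log2 units above or below each of the other 3. The first Mstn-null array had 34 above and 2 below, the second 174 and 14, the first WT array 142 and 7 and the second WT array 58 and 146. Macrophage genes made up 24 of those above on the second Mstn-null array and 16 of those below on the second WT array, and sarcomere genes 28 of those above on the first WT array.

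The single genes that follow were chosen for the widest gaps between the isolations of 1 genotype. Pate12, a gene of a family known from the reproductive tract, read 6.11 on the first WT array against -3.32, -3.73 and, on the second WT array, -2.57. Prl2c5, of the placental prolactin family, read 6.63 on the second WT array against 3.23, 2.29 and 1.48. Gsta1, a glutathione transferase, split both genotypes, at -0.37 and -4.13 on the Mstn-null arrays and -3.63 and 1.45 on the WT arrays. Areg, an epidermal growth factor receptor ligand, read -4.05 and 1.42 on the Mstn-null arrays and -2.84 and -0.79 on the WT arrays, and Sfrp2, a secreted Wnt inhibitor, 2.93 and -0.80 against -1.82 and -0.12. In these genes the isolations of 1 genotype differed more than the genotype means, which that choice favours.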

How the data were processed

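Total RNA of the cultures was labelled with Cy3, as the labels state. A deposited file holds 1 array's spot intensities from Agilent Feature Extraction (10.7.1.1 per the file headers, 9.1 per the submitters' processing notes), background corrected and not scaled between arrays, per the file headers.

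Processed intensities were divided by the array's 75th percentile of non-control spots and put on the log2 scale. Outlier spots (100 to 122 an array) were removed before averaging the spots of a probe. Of 55681 probes 26413 were named through RefSeq accessions (GRCm38.p6). A gene was its probe with the highest mean, and entered the test where both arrays of any group showed it well above background. The group means of all 6 arrays were fitted with limma 3.58.1 in R 4.3.3 (Benjamini-Hochberg over all features), checked on simulated data. For genes in 1 genotype only, the fold is a lower bound against each dim array's lowest signal above background, or the gene's own if higher.

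The comparison and the 51 gene lists (1178 of 1199 entries with a probe) were chosen with earlier results of these data known. Named genes were, by rule, the 10 with the smallest p in each direction among named genes above background on all 4 MDSC arrays with no overlap, the same among genes measured in 1 genotype only, the 5 widest gaps between isolations in each direction, and the 10 tested neighbours of Mstn on each side; examples from the lists were picked with their values in view. Alternatives were other scalings, background correction, filters, probe rules, variance models, a replicate block and leaving out each array. Some genes of the lists are counted but not reported here by name.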

Additional observations from a re-analysis of the deposited data

How the results depend on the processing

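In the main setting 0 genes were called higher, 0 lower and 0 in total. After quantile normalization 10, 12 and 22 were called, and with the filter set on the MDSC arrays alone 22, 50 and 72, where fewer features entered the adjustment. At an adjusted p under 0.10, a threshold added after the data were seen, the counts were 129, 335 and 464. The other planned settings gave 0 calls, as did leaving out any 1 of the 6 arrays (lowest and highest count 0). With isolation numbers as a replicate block 0 genes were called; same-numbered isolations deviated in opposite directions (r = -0.40 across genes) and nothing in the labels pairs them. A crossed replicate block, added after the data were seen, called 142 higher, 35 lower and 177 in total. Of 1070 values of named genes under an alternative, 1007 kept their direction and side of the threshold or moved within the spread, 62 came to pass it and 1 moved (Gtf3c3, from -0.13 to 0.03 under median centring, which shifts all features alike, from a median of -0.12 to 0.04). The genes named for the smallest p kept their direction in every setting run, while of the 20 neighbours of Mstn 15 to 20 did, depending on the setting. Leaving out an array cannot reverse a difference between groups that do not overlap, so those settings could not test the direction of genes chosen for no overlap. Of 918 list medians 71 moved by more than the spread between isolations. A fit that leaves out 1 MDSC array assumes that the lone array varies like the other groups. Leaving out either ESC array gave the same fit as using only the 4 MDSC arrays, so these settings are not separate checks. Weak signal limits the genes named at levels near background, and 2 arrays a genotype on separate slides limit every comparison.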
